A study of Mus musculus with 21 samples.

Results

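The ADAM and ADAMTS genes encode related families of metalloproteases, and their RNA was followed in mouse testis after heat, with and without the gene Mageb4. Genes were taken by symbol: Adam or Adamts, a number and, for Adam, at most 1 letter, with a mean of at least 0.5 TPM (a transcript level relative to the library total and corrected for transcript length) over 21 libraries. The rule gave 43 genes, 32 ADAM and 11 ADAMTS, out of 52 symbols of the families in the table and 21450 rows at the same mean. The rule used the mean over all libraries and no difference between groups.

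The libraries came from whole testes of C57BL6 male mice in 4 groups: 5 Mageb4 knockout testes taken 72 h after a heat shock, 4 wild-type testes 72 h after the same heat, 6 knockout testes without heat and 6 wild-type testes without heat. Mageb4 belongs to the MAGE genes, many of which are active above all in germ cells and tumours. The comparisons ask how loss of Mageb4 changes the testis at rest and after heat. How old the mice were, how hot and how long the heat was, and how the allele was made are details the labels used here leave unstated. Replicates are labelled biological. A TPM value does not show its read number, so depth is unknown, and precision was taken from the spread between libraries.

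ADAM proteins sit in the cell membrane and carry a metalloprotease and a disintegrin domain. In somatic cells, members such as ADAM10 and ADAM17 cut other membrane proteins just outside the cell, a step called shedding that releases growth factors and cytokines and starts Notch signalling. A large second branch is made by male germ cells and ends up on sperm, where several members have lost the protease active site and act in sperm passage through the oviduct and in binding to the egg coat. ADAMTS proteins are secreted, carry thrombospondin repeats, and cut matrix proteins such as proteoglycans and procollagen.

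Mageb4 RNA was at 0.09 to 0.15 TPM in heated knockout, 7.82 to 8.26 TPM in heated wild-type, 0.01 to 0.11 TPM in unheated knockout and 1.53 to 1.99 TPM in unheated wild-type testes, so every library matched its genotype label. 1 library stood apart in a family member. Adam7, an ADAM of the epididymis, the duct next to the testis, had 0.06, 0, 0, 0 and 0 TPM in heated knockout testes, against 0, 0, 136 and 0.06 TPM in heated wild-type testes, and at most 0.01 TPM in any unheated testis. Other epididymal genes were high in the same library, heated wild-type replicate 3: Crisp1 had 2126 TPM and Spink8 1280.1 TPM there, against at most 3.81 and 18.0 TPM in any other library. Lcn5 (4.19 TPM), Defb20 (9.74 TPM) and Defb42 (58.0 TPM) were also highest there. The other markers were not raised there: Lcn8 and Lcn9 were at 0 TPM, Rnase10 was at 0.21 TPM and Teddm1a was at 0 in all libraries. The summed level of the 10 epididymal markers, Adam7 among them, was 3614 TPM there. It was 13.6 TPM in the lowest heated wild-type library, and between 4.88 and 12.6 TPM in the other groups. Adam7 entered the 43 through that library alone and was called in no comparison (adjusted p = 0.0593 for heat in wild type), and leaving the library out changed no call among the others. Adam7 was called higher with heat in wild type under quantile normalization (adjusted p = 0.0453), with library weights (0.0095) and without replicate 1, 2 or 4 of the heated wild type (0.0199 to 0.0227), all of which keep that library.

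Of the 43 genes, 39 had a mean of at least 0.5 TPM in all 4 groups and 40 in both unheated groups. Just inside the threshold lay Adamts15, with a mean of 0.656 TPM over all libraries, and Adam12, with 0.6905 TPM. Just outside lay Adamts14 with 0.451 TPM and Adamts8 with 0.414 TPM, and the other symbols left out were Adamts12, Adamts4, Adamts19, Adamts18, Adamts16, Adamts13 and Adam28. Adamts13, the protease that trims von Willebrand factor, had 0.06, 0, 0, 0 and 0.01 TPM in heated knockout testes, against 0.01, 0, 0.01 and 0.02 TPM in heated wild-type testes. Its highest unheated value was 0.02 TPM in either genotype, and it was at or close to 0 throughout.

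Heat lowered the sperm-lineage ADAM genes and raised most of the others, and for most genes the change was smaller in the knockout. Each comparison was tested for all 21450 rows on log2(TPM + 1), with genes called at an adjusted p under 0.05 by limma. Log2 changes are given with their moderated standard error after the ± sign, and means of TPM with their SD (n = 5 heated knockout, 4 heated wild-type, 6 unheated knockout and 6 unheated wild-type testes). In wild type, heat raised 15 of the 43 genes and lowered 25, with 46.4% of all rows called higher and 44.0% called lower. In the knockout, heat raised 13 and lowered 21, with 40.3% of all rows called higher and 40.2% lower. The median log2 change was -1.18 for the 43 genes and 0.06 for all rows in wild type, and -0.35 and 0.01 in the knockout. After heat, 23 of the 43 genes were higher and 13 lower in the knockout than in wild type, with 33.2% of all rows called higher and 47.2% lower. The difference of the heat effects (knockout minus wild type, an interaction) was called higher for 23 and lower for 14, with 31.6% of all rows called higher and 45.4% lower. Most rows of the table moved with heat, so the counts are read against that background and the sizes of the changes are given for each gene. The raised counts include Adam12 and Adamts15, which passed the threshold through the heated groups. The lowered counts include Adamts20, whose heated wild-type mean was under the threshold. Scaling the libraries by the median of ratios instead shifted the log2 changes, by a median over rows of -0.21 for heat in wild type. The median shift was 0.11 for knockout against wild type after heat and 0.13 in the interaction. No called change among the 43 genes turned its direction.

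**Figure D1:**
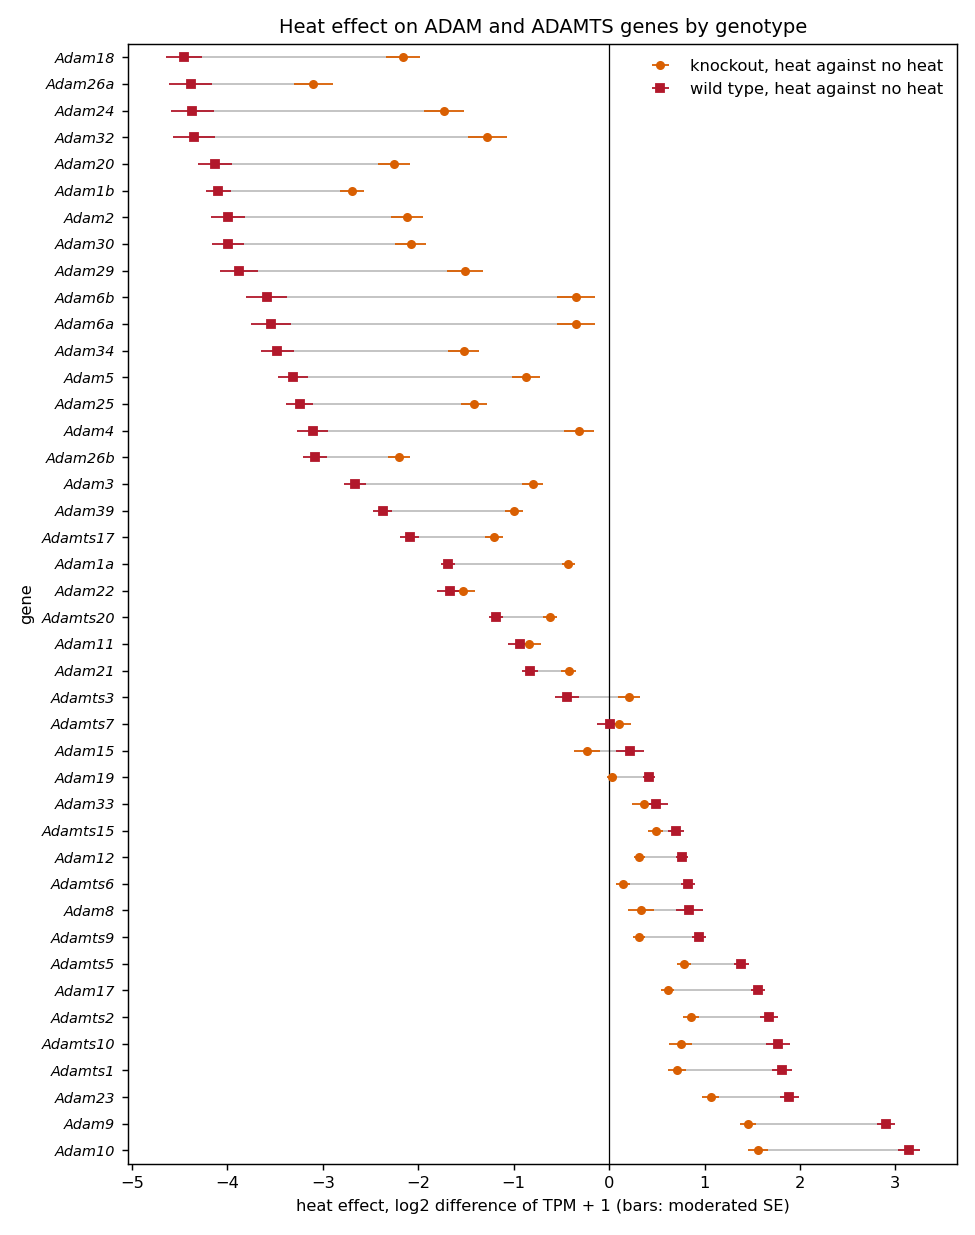
Heat effect on each ADAM and ADAMTS gene (y axis; Adam7 left out), as the log2 difference of TPM + 1 between heated and unheated testes (x axis), in the knockout (circles; 5 heated and 6 unheated libraries) and in wild type (squares; 4 and 6 libraries). Bars are moderated standard errors. Sperm-lineage ADAM genes lie on the left, down to -4.46 for Adam18 in wild type, and Adam10 lies furthest right at 3.14 in wild type, and the knockout circle lies nearer 0 than the wild-type square for most genes.

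Without heat, 5 sperm-lineage genes led the families. In unheated wild-type testes Adam3 averaged 952 ± 66.6 TPM, Adam5 713 ± 53.3 TPM, Adam32 444 ± 22.9 TPM, Adam2 242 ± 10.2 TPM and Adam1a 171 ± 4.703 TPM (SD, n = 6). The ranges of these neighbours in the order did not overlap. The highest gene outside the sperm-lineage class was Adam15, at 13.3 ± 3.25 TPM. The 20 sperm-lineage genes together held 1323 to 1864 TPM in heated knockout, 255 to 492 TPM in heated wild-type, 2882 to 3418 TPM in unheated knockout and 3121 to 3702 TPM in unheated wild-type testes.

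Loss of Mageb4 without heat gave no call among the 43 genes by limma, in either direction, with 0.876% of all rows called higher and 0.0699% lower. The log2 differences ran from -0.19 ± 0.13 for Adam15 to 0.26 ± 0.10 for Adam10, and all 20 sperm-lineage genes lay between -0.11 and -0.01. At an unadjusted p under 0.05 there were 6 genes, and the share of all rows at that p was not counted. Adam9 had 9.61 to 11.97 TPM in unheated knockout and 8.33 to 9.53 TPM in unheated wild-type testes, a log2 difference of 0.23 ± 0.08 (adjusted p = 0.16). These ranges did not overlap, but how often that held over all rows was not counted. With a weight per library, Adam9, Adam10, Adam17, Adam19 and Adamts5 were called higher, and with only these groups in the fit, Adam9 was (adjusted p = 0.029). The shares of all rows called in these fits were not counted. Of 8 Sertoli cell markers, 3 were called higher in the unheated knockout, with a summed level of 1415 to 1912 TPM in unheated knockout and 1126 to 1286 TPM in unheated wild-type testes, and the part of this in the values above was not tested.

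Heat lowered the sperm-lineage ADAM genes, and lowered them further in wild type. In wild type all 20 fell, by a median of 3.57 on the log2 scale (0.83 to 4.46). In the knockout 17 of the 20 fell, with a median change of -1.46, and Adam4, Adam6a and Adam6b were not called. After heat all 20 were higher in the knockout than in wild type, by a median of 1.85. The difference of the heat effects was also called for all 20, between 0.41 and 3.24. Among all rows, 44.0% were called lower with heat in wild type and 40.2% in the knockout. After heat 33.2% of all rows were higher in the knockout, and 31.6% had a higher difference. These sets share libraries, since heated and unheated groups enter several comparisons. In whole testis, fewer cells of a type and less RNA per cell cannot be told apart.

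**Figure D2:**
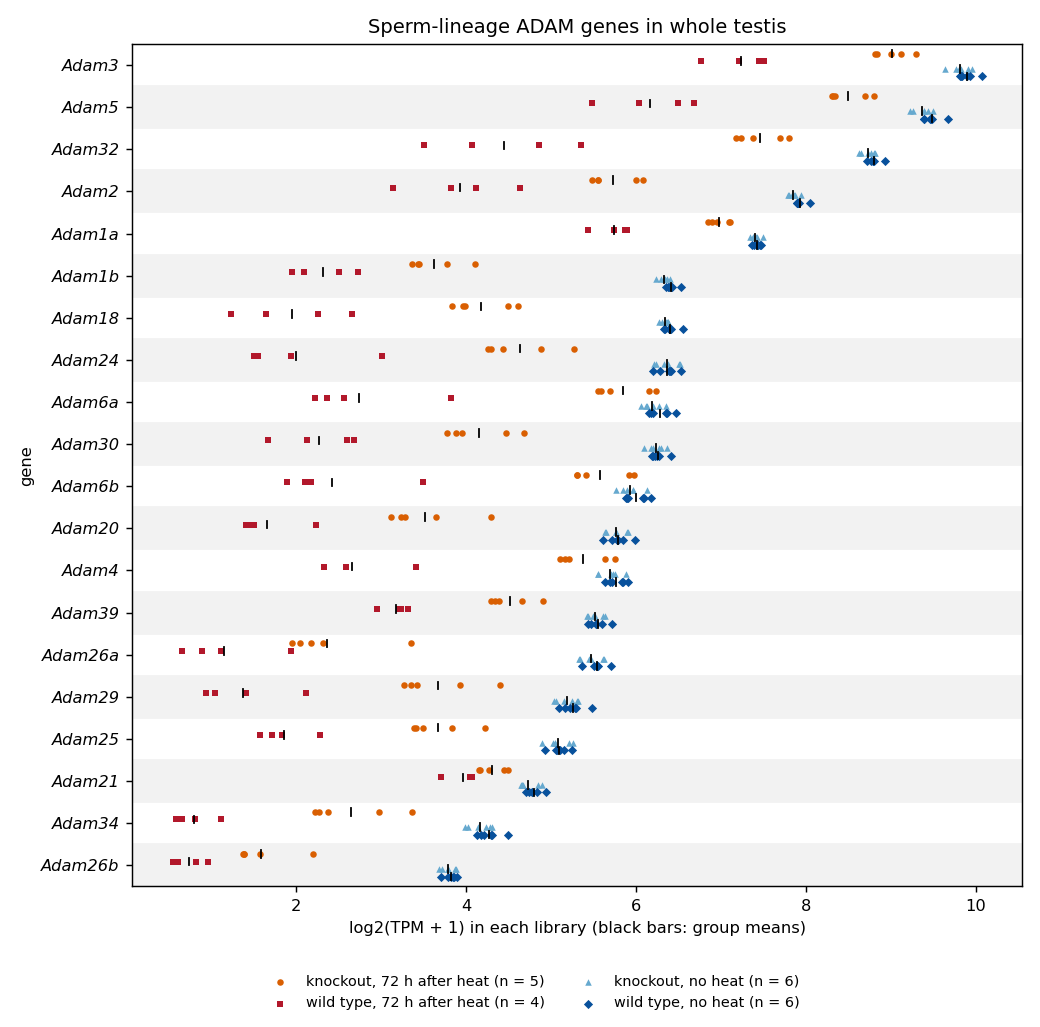
Level of the 20 sperm-lineage ADAM genes (y axis, ordered by unheated wild-type level) as log2(TPM + 1) in each library (x axis). Within a gene, from top to bottom, points are heated knockout (circles), heated wild type (squares), unheated knockout (triangles) and unheated wild type (diamonds), and black bars are group means. Heated wild-type points lie furthest left, and heated knockout points of Adam4, Adam6a and Adam6b reach into the range of the unheated knockout.

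ADAM1B and ADAM2 pair on mouse sperm as fertilin, and ADAM1A pairs with ADAM2 inside the maturing germ cell, where the pair is needed for ADAM3 to reach the sperm surface. Adam2 had 63.1, 45.9, 45.8, 43.6 and 66.9 TPM in heated knockout testes, against 16.3, 7.82, 13.2 and 23.8 TPM in heated wild-type testes. Without heat, Adam2 spanned 219.9 to 245 TPM in the knockout (median 229) and 236 to 263 TPM in wild type (median 238). Each heated group lay below both unheated groups, and every heated knockout value lay above every heated wild-type value. The log2 change with heat was -2.12 ± 0.17 (adjusted p = 2.21e-10) in the knockout and -3.997 ± 0.18 (adjusted p = 5.12e-15) in wild type. Adam1b had 12.7, 9.31, 9.91, 9.78 and 16.2 TPM in heated knockout testes, against 4.67, 2.85, 3.25 and 5.6 TPM in heated wild-type testes. Its unheated levels were 74.04 to 83.03 TPM in the knockout (median 79.4) and 80.3 to 91.2 TPM in wild type (median 83.3). The same order of groups held with no overlap after heat, and Adam1b was 6.83-fold lower with heat in the knockout and 20.5-fold lower in wild type. Adam1a had 135, 118, 114, 122 and 136 TPM in heated knockout testes, against 57.5, 42.4, 52.3 and 58.4 TPM in heated wild-type testes. The unheated range was 161 to 179 TPM in the knockout (median 167) and 163 to 176 TPM in wild type (median 172). Adam1a thus kept more of its RNA than its near copy Adam1b: 74.4% in the knockout and 30.9% in wild type of the unheated mean remained, against 14.6% in the knockout and 4.87% in wild type for Adam1b. The fall of Adam1a in the knockout, -0.43 ± 0.07 (adjusted p = 5.61e-06), was lost under quantile normalization (adjusted p = 0.366), and 63.7% of its annotated exon bases overlap exons of Mapkapk5, Tmem116 or a predicted gene, whose reads may be shared with it.

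ADAM3 is needed for mouse sperm to enter the oviduct and to bind the egg coat, and Adam5, Adam18 and Adam32 encode further sperm or testis ADAMs. Adam3 had 554, 449.8, 455, 512 and 628 TPM in heated knockout testes, against 181, 108, 147 and 174 TPM in heated wild-type testes. Without heat it stood at 796 to 993 TPM in the knockout (median 898) and 895 to 1074 TPM in wild type (median 932). No heated value reached an unheated one, and the heated genotypes did not overlap. Adam3 was 1.73-fold lower with heat in the knockout (-0.80 ± 0.11 on the log2 scale, adjusted p = 7.25e-07) and 6.25-fold lower in wild type (-2.66 ± 0.12, adjusted p = 3.12e-15). Adam5 had 446, 315, 323, 319 and 412 TPM in heated knockout testes, against 101, 43.7, 64.3 and 88.7 TPM in heated wild-type testes. Its unheated range was 599 to 722 TPM in the knockout (median 668) and 667 to 814 TPM in wild type (median 707). Adam5 followed Adam3, with 54.96% in the knockout and 10.4% in wild type of the unheated mean left.

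Adam32 stood further apart between genotypes. Its values were 221, 149.7, 164, 144 and 205 TPM in heated knockout testes, against 39.9, 10.3, 15.7 and 27.97 TPM in heated wild-type testes, and 394 to 447 TPM in the knockout (median 429) and 421 to 488 TPM in wild type (median 439.7) without heat. The heated groups did not overlap, and the difference of the heat effects was 3.08 ± 0.30 (adjusted p = 2.56e-08). Adam18 had 21.4, 13.3, 14.8, 14.5 and 23.4 TPM in heated knockout testes, against 5.29, 1.35, 2.13 and 3.78 TPM in heated wild-type testes. Unheated Adam18 was 75.9 to 82.2 TPM in the knockout (median 80.8) and 79.03 to 93.1 TPM in wild type (median 83.03). It had the largest called fall of the 43 genes in wild type on the log2(TPM + 1) scale, -4.46 ± 0.19 (adjusted p = 2.57e-15), and was 4.57-fold lower in the knockout.

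Adam6a and Adam6b differed most between genotypes after heat, and Adam4 took a like course. Adam6a and Adam6b are near-identical copies whose coding sequences share 94.62% of their bases, they lie beside the immunoglobulin heavy chain genes, and their loss lowers male fertility in mice. Adam4 also encodes a sperm ADAM. Adam6a had 69.8, 47.1, 50.7, 45.7 and 74.5 TPM in heated knockout testes, against 13.1, 3.65, 4.14 and 4.92 TPM in heated wild-type testes. Without heat its levels were 65.4 to 80.8 TPM in the knockout (median 70.7) and 70.02 to 87.3 TPM in wild type (median 76.4). Heated knockout values overlapped the unheated ones, while all heated wild-type values lay far below. Adam6b had 59.1, 38.4, 41.4, 38.6 and 61.9 TPM in heated knockout testes, against 10.2, 2.72, 3.29 and 3.5 TPM in heated wild-type testes, and 53.4 to 68.7 TPM in the knockout (median 59.8) and 57.8 to 71.01 TPM in wild type (median 62.9) without heat. Because reads of the copies may be shared, the split between Adam6a and Adam6b is uncertain, and the copies are best read together. In wild type, Adam6a was 11.95-fold and Adam6b 12.8-fold lower with heat, and without heated wild-type replicate 1, the highest of its group, 18.2-fold and 19.98-fold lower. After heat they were 8.92-fold and 9.699-fold higher in the knockout than in wild type, or 13.6-fold and 15.1-fold without that replicate. Adam4 averaged 41.2 ± 8.97 TPM in heated knockout, 5.66 ± 2.69 TPM in heated wild-type, 50.9 ± 4.58 TPM in unheated knockout and 53.6 ± 3.88 TPM in unheated wild-type testes.

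The heat change of these 3 genes in the knockout was -0.32 ± 0.15 (adjusted p = 0.0649) for Adam4, -0.35 ± 0.20 (adjusted p = 0.117) for Adam6a and -0.34 ± 0.20 (adjusted p = 0.119) for Adam6b. Each call depended on the settings. All 3 were called lower with median-of-ratios scaling (adjusted p = 0.0198, 0.0485 and 0.0489), with only the knockout groups in the fit, with a weight per library, and without heated wild-type replicate 1, which enters this comparison only through the shared spread. The difference of the heat effects was 2.79 ± 0.23 (adjusted p = 2.09e-09) for Adam4, 3.20 ± 0.29 (adjusted p = 9.44e-09) for Adam6a and 3.24 ± 0.29 (adjusted p = 8.13e-09) for Adam6b, and Adam6b and Adam6a were its largest rises among the 43 genes.

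The start regions of Adam6a and Adam6b are shown with that of Adam10, since among called genes they have the largest positive and the largest negative difference of the heat effects. Each is the 250 bases before the annotated start, from RefSeq on GRCm38.p6, and capitals mark the TATA sequence TATAAA or the GC box GGGCGG on either strand. The Adam6a window is chr12:113543658-113543907, the Adam6b window chr12:113489315-113489564 and the Adam10 window chr9:70678732-70678981, all on the plus strand.
Adam6a: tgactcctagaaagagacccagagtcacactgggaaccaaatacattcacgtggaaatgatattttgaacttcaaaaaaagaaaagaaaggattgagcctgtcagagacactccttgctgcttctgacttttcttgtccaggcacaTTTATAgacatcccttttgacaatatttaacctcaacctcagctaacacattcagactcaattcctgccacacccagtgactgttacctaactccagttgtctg
Adam6b: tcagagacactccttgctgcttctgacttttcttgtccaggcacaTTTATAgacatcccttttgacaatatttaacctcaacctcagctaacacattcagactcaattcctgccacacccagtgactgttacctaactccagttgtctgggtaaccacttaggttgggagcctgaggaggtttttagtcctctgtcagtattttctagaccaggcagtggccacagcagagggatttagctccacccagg
Adam10: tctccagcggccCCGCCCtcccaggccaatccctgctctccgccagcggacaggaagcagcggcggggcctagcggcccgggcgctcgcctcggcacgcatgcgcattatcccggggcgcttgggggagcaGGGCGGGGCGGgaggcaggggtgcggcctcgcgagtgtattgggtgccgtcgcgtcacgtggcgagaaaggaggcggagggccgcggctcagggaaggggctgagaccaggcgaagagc
The last 149 bases of the Adam6a window are the first 149 of the Adam6b window, so the copies share this stretch and their annotated starts lie at different points relative to it. Both hold TATAAA once and no GGGCGG, and the Adam10 window holds GGGCGG 3 times, with a pair of copies sharing 1 base, and no TATAAA.

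Windows from 250 bases before to 50 after the start were found for 23 of the 43 genes. The 10 windows of 10 sperm-lineage genes held GGGCGG in 0 cases and TATAAA in 3, with a GC content of 35.3% to 51.0% (median 39.5%). TATAAA was in the windows of Adam6a, Adam6b and Adam29. For Adam6a and Adam6b it is the same match, in the stretch these copies share, so it is counted more than once. The 15 windows of 13 other genes held GGGCGG in 10 cases and TATAAA in 1, with a GC content of 49.3% to 77.3% (median 66.3%). Over all 32851 windows, 35.66% held GGGCGG and 13.62% held TATAAA. The cyclic AMP response element TGACGTCA was in 0 of the 25 windows and in 1.79% of all. Its shorter core TGACG was in 0 of the 10 sperm-lineage windows, in 4 of the 15 others and in 20.81% of all windows. A match describes the letters in the window and not a site in use.

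The testases, a rodent group of sperm and testis ADAMs that kept the protease active site, fell in both genotypes. Adam24, testase 1 of mouse sperm, had 28.5, 18.1, 20.6, 18.6 and 37.5 TPM in heated knockout testes, against 7.06, 1.84, 1.92 and 2.82 TPM in heated wild-type testes, and 72.8 to 90.9 TPM in the knockout (median 80.5) and 72.4 to 91.2 TPM in wild type (median 83.03) without heat. Adam26a, testase 3, had 3.98, 3.12, 2.87, 3.52 and 9.18 TPM in heated knockout testes, against 2.84, 0.58, 0.85 and 1.16 TPM in heated wild-type testes, and 39.1 to 48.1 TPM in the knockout (median 42.8) and 40.2 to 51.1 TPM in wild type (median 45.6) without heat. For both genes all heated values lay below the unheated ones and the heated genotypes were apart, in Adam26a by a small margin. In wild type Adam24 was 23.96-fold and Adam26a 33.5-fold lower with heat, and without heated wild-type replicate 1 they were 37.2-fold and 52.7-fold lower. After heat Adam24 was 7.24-fold and Adam26a 3.34-fold higher in the knockout than in wild type, or 11.3-fold and 5.25-fold without that replicate. Adam26a had the largest fall of the 43 genes in the knockout, 9.55-fold lower in mean TPM (-3.10 ± 0.21, adjusted p = 1.76e-11), followed on the log2(TPM + 1) scale by Adam1b and Adam20 and by mean TPM by Adam1b and Adam26b.

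Adam20 had 11.5, 8.67, 8.43, 7.64 and 18.6 TPM in heated knockout testes, against 3.71, 1.65, 1.78 and 1.84 TPM in heated wild-type testes, and 48.6 to 58.96 TPM in the knockout (median 53.4) and 47.8 to 62.4 TPM in wild type (median 53.8) without heat. Its heated groups were apart from each other and from the unheated range. The remaining sperm-lineage genes had the following means in heated knockout, heated wild-type, unheated knockout and unheated wild-type testes, in that order. Adam25, testase 2, had 12.02 ± 3.49, 2.67 ± 0.828, 32.9 ± 3.09 and 33.2 ± 2.45 TPM. Adam26b, a copy of Adam26a, had 2.07 ± 0.868, 0.672 ± 0.226, 12.8 ± 0.749 and 13.1 ± 0.6498 TPM. Adam34, testase 4, had 5.56 ± 2.45, 0.748 ± 0.294, 16.98 ± 1.67 and 18.3 ± 1.81 TPM. For each of them the heated wild-type level was the lowest. Adam39, a testis gene, had 22.2 ± 4.39, 8.06 ± 0.952, 44.9 ± 2.87 and 45.8 ± 3.47 TPM. Adam29 and Adam30 encode further testis ADAMs. Adam29 had 12.4 ± 4.84, 1.74 ± 1.11, 35.4 ± 3.02 and 37.3 ± 3.69 TPM. Adam30 had 17.3 ± 5.26, 3.99 ± 1.497, 74.2 ± 5.095 and 75.6 ± 4.48 TPM. Adam21, a testis ADAM found on sperm, had 18.9 ± 2.21, 14.7 ± 1.79, 25.6 ± 2.04 and 26.7 ± 1.62 TPM and moved least of the 20 in wild type, 1.82-fold lower with heat.

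Several of these genes are close copies, and reads may be shared between them. The coding sequences of Adam25 and Adam39 share 95.57% of their bases, those of Adam26a and Adam26b 93.94%, Adam20 with Adam25 88.57%, Adam20 with Adam39 88.31%, and Adam34 with Adam26a 87.49%. Adam1a and Adam1b share 73.06%. The sources used here name no counting tool, so the values of single copies are uncertain beyond their spread.

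After heat, the 20 genes kept a median of 35.7% of their unheated mean level in the knockout (10.5% to 81.0%) and 5.80% in wild type (2.99% to 54.9%). Adam4 kept 80.98% in the knockout and 10.6% in wild type, and Adam6a kept 79.9% in the knockout and 8.37% in wild type. Adam3 kept 57.7% in the knockout and 16% in wild type. At the other end, Adam2 kept 23.1% in the knockout and 6.31% in wild type, and Adam26a 10.5% in the knockout and 2.99% in wild type.

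The unequal retention could be seen within single libraries, where depth and scaling cancel. For these pairs, chosen after their values were seen, the level of a gene that kept its RNA in the knockout was divided by that of a gene that fell. Adam6a over Adam1b was 4.59 to 5.499 in heated knockout, 0.879 to 2.81 in heated wild-type, 0.843 to 0.974 in unheated knockout and 0.838 to 1.02 in unheated wild-type testes. Adam4 over Adam2 was 0.729 to 0.8396 in heated knockout, 0.211 to 0.59 in heated wild-type, 0.205 to 0.236 in unheated knockout and 0.205 to 0.237 in unheated wild-type testes. Both ratios were highest in the heated knockout with no overlap, and unheated genotypes overlapped.

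**Figure D3:**
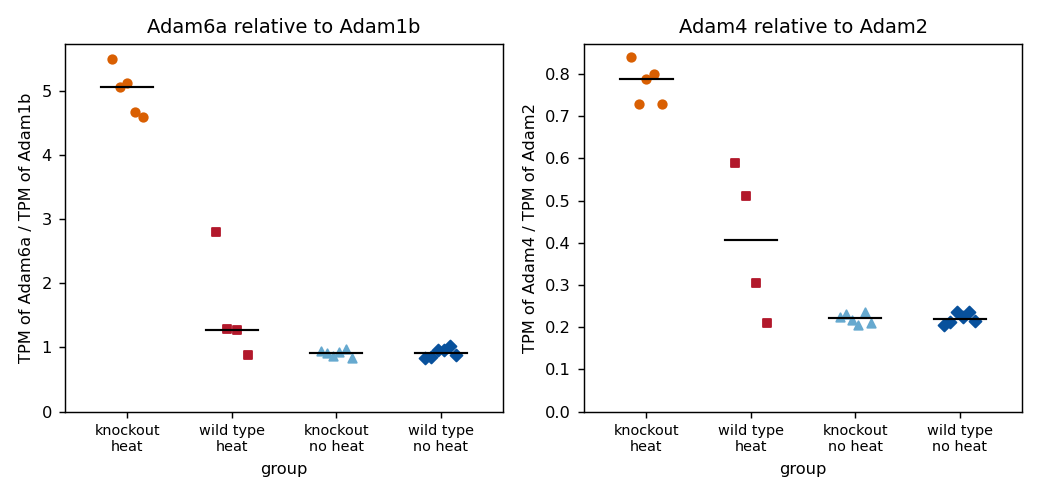
Ratio of Adam6a to Adam1b TPM (left) and of Adam4 to Adam2 TPM (right) within each library (y axes, no unit) by group (x axis), with black lines at group medians. The 5 heated knockout libraries lie at 4.59 to 5.50 on the left and at 0.729 to 0.840 on the right, above all other libraries.

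Markers of germ cell stages moved beside these genes. The summed level of 8 round spermatid markers was 375 to 675 TPM in heated knockout, 102 to 179 TPM in heated wild-type, 1679.8 to 1847 TPM in unheated knockout and 1749 to 1821 TPM in unheated wild-type testes. That of 8 pachytene spermatocyte markers was 4501 to 5494 TPM in heated knockout, 1854 to 2702 TPM in heated wild-type, 8139 to 8353 TPM in unheated knockout and 8289.5 to 8741 TPM in unheated wild-type testes. Heat lowered all 8 round spermatid markers in both genotypes. It lowered 7 of the 8 pachytene markers and raised 1 in each genotype, and both sums were higher in heated knockout than in heated wild-type testes. The summed level of 8 elongating spermatid markers, among them the protamines, was 71729 to 90146 TPM in heated knockout, 31940.0 to 43482 TPM in heated wild-type, 45446 to 52626 TPM in unheated knockout and 43036 to 54358 TPM in unheated wild-type testes. The sum was highest in heated knockout testes, and heat raised 8 of the 8 markers in the knockout. In wild type heat raised 4, Prm2, Oaz3, Odf1 and Smcp, and lowered 3, Prm1, Tnp1 and Tnp2, so the lower sum there does not describe every marker. Over all rows, heat raised 46.4% and lowered 44.0% in wild type, and raised 40.3% and lowered 40.2% in the knockout. The part of changed cell numbers in the ADAM levels was not tested.

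What the sperm-lineage genes share beyond their names was read from the gene models of GENCODE M21 on mm10. Of the 20, 15 have a single coding exon, and their difference of the heat effects had a median of 1.87 (0.41 to 3.24), against 2.29 (1.86 to 3.08) for the 5 with more. The zinc-binding motif of the active site, a set pattern of histidines and a glutamate read from the coding sequence, was found in 11 and not in Adam2, Adam3, Adam4, Adam5, Adam6a, Adam6b, Adam18, Adam29 and Adam32. The 9 genes without it had a median difference of 2.43 (1.86 to 3.24) and the 11 with it 1.40 (0.41 to 2.63), given as a description with no test. The log2(TPM + 1) scale understates the change of low genes, and Adam26b (0.67 TPM) and Adam34 (0.75 TPM in heated wild type) are among the 11. The near-identical copies Adam6a and Adam6b are both counted in the 9. The motif was also found in all 8 sheddases and not in Adam7, Adam11, Adam22 and Adam23. It was found in all 11 ADAMTS genes with glycine or asparagine allowed at 1 position, and with glycine alone it was not found in Adamts1, Adamts9, Adamts15 and Adamts20, while no ADAM gene differed between these patterns.

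On chromosome 8 lie 13 of the 43 genes, 12 of them sperm-lineage. The genes Adam18, Adam3, Adam5, Adam32 and Adam9 follow each other on the minus strand at chr8:24602246-25016927 (mm10), with 806 bases between Adam32 and Adam9. Heat lowered the first 4 in both genotypes and raised Adam9. In wild type the change of Adam32 was -4.35 ± 0.22 (adjusted p = 4.59e-14) and that of its neighbour Adam9 2.90 ± 0.09 (adjusted p = 5.36e-17). In the knockout the changes were -1.27 ± 0.21 (adjusted p = 9.79e-06) for Adam32 and 1.46 ± 0.09 (adjusted p = 2.7e-12) for Adam9. All the other 8 members of the chromosome fell in both genotypes.

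**Figure D4:**
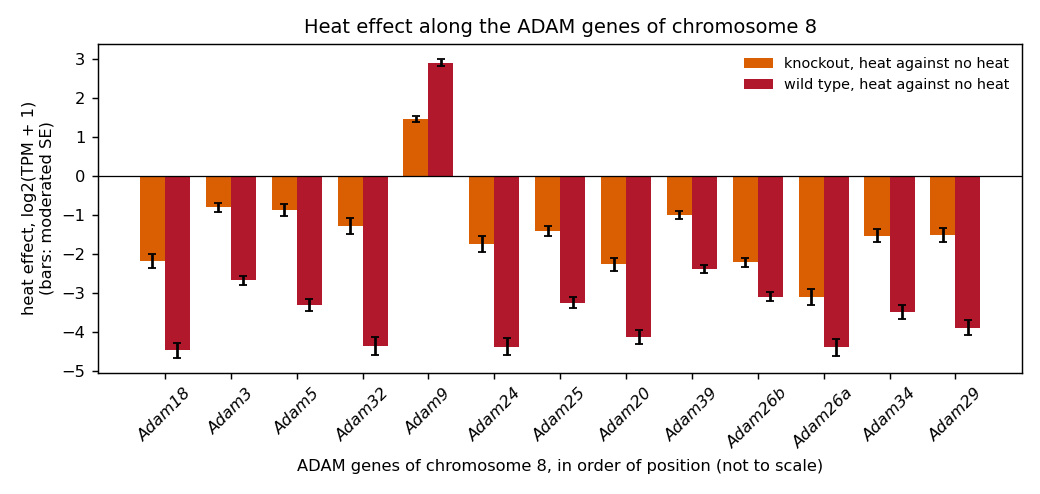
Heat effect in log2(TPM + 1) (y axis) on the 13 ADAM genes of chromosome 8 in order of position (x axis, not to scale), in the knockout (left bars) and wild type (right bars). Error bars are moderated standard errors, and Adam9 is the one gene above 0, at 1.46 in the knockout and 2.90 in wild type.

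Genes that germ cell ADAMs need for folding and transport were followed in a list of 15 sperm ADAM maturation factors, chosen with earlier results of these data known. Heat in wild type lowered 10 and raised 4, and heat in the knockout lowered 5 and raised 5. The median log2 change was -2.29 in wild type and 0.14 in the knockout. The difference of the heat effects was called higher for 10 and lower for 4. For all rows, heat raised 46.4% and lowered 44.0% in wild type, and raised 40.3% and lowered 40.2% in the knockout. The difference was higher for 31.6% and lower for 45.4% of them. Prss55, a membrane serine protease needed for mature ADAM3, averaged 252 ± 33.1 TPM in heated knockout, 26.2 ± 11.6 TPM in heated wild-type, 212 ± 11.7 TPM in unheated knockout and 223 ± 4.61 TPM in unheated wild-type testes. Prss37, a protease relative with the same need, averaged 428 ± 87.9 TPM in heated knockout, 41.7 ± 18.1 TPM in heated wild-type, 368 ± 29.5 TPM in unheated knockout and 374 ± 21.1 TPM in unheated wild-type testes. Both were near their unheated level in the heated knockout and low in heated wild type, with a difference of the heat effects of 3.38 ± 0.22 (adjusted p = 1.78e-10) for Prss55 and 3.41 ± 0.23 (adjusted p = 2.71e-10) for Prss37. Calr3, a germ cell chaperone of ADAM3, showed 2.94 ± 0.20 (adjusted p = 3.68e-10). Ace, whose germ cell form affects ADAM3 on sperm, showed 0.98 ± 0.07 (adjusted p = 5.36e-10). In wild type, heat changed Cmtm2b, needed for ADAM3 on sperm, by -4.04 ± 0.16 (adjusted p = 7.91e-16), its neighbour gene Cmtm2a by -4.13 ± 0.19 (adjusted p = 5.87e-15) and Clgn, the chaperone calmegin of fertilin, by -3.39 ± 0.15 (adjusted p = 7.32e-15). Hspa5, a general chaperone, rose by 1.48 ± 0.06 (adjusted p = 6.76e-16).

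The sheddases took the opposite course. Of the 8 ADAMs of this class, heat raised 7 in wild type and 6 in the knockout and lowered 0 in either. Among those raised is Adam12, which passed the threshold through the heated groups, so its rise is in part set by the choice of genes. Adam15 was called lower with heat in the knockout with median-of-ratios scaling. After heat 6 were lower in the knockout than in wild type and the difference of the heat effects was called lower for 7, of which the calls of Adam8 and Adam15 depended on the settings. Heat raised 46.4% of all rows in wild type and 40.3% in the knockout. After heat 47.2% of all rows were lower in the knockout, and 45.4% had a lower difference. Adam10, which sheds Notch and cadherins, had 31.9, 40.6, 29.8, 46.9 and 31.5 TPM in heated knockout testes, against 85.3, 107, 89.2 and 81.7 TPM in heated wild-type testes. Without heat it spanned 10.1 to 13.8 TPM in the knockout (median 11.2) and 8.46 to 11.1 TPM in wild type (median 9.28). The heated wild-type values were the highest, the heated knockout values came next and neither overlapped the unheated range. Adam10 was 3.16-fold higher with heat in the knockout (1.56 ± 0.11 on the log2 scale, adjusted p = 1.81e-11) and 9.68-fold higher in wild type (3.14 ± 0.11, adjusted p = 2.04e-16), the largest rise of the 43 genes in both. The difference of the heat effects was -1.58 ± 0.15 (adjusted p = 2.09e-08).

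Adam9, a broad sheddase, had 29.2, 34.7, 25.01, 38.98 and 29.3 TPM in heated knockout testes, against 69.5, 83.8, 73.5 and 67.9 TPM in heated wild-type testes, and 9.61 to 11.97 TPM in the knockout (median 10.8) and 8.33 to 9.53 TPM in wild type (median 9.07) without heat. Its groups kept the order of Adam10 with no overlap after heat. It was 2.94-fold higher with heat in the knockout and 8.21-fold in wild type. Adam17, which releases TNF and ligands of the EGF receptor, had 14, 15.6, 13.3, 17.6 and 15.01 TPM in heated knockout testes, against 26.8, 27.7, 26.2 and 26.5 TPM in heated wild-type testes, and 8.53 to 10.4 TPM in the knockout (median 9.28) and 7.74 to 9.79 TPM in wild type (median 8.24) without heat. The heated genotypes did not overlap, and the change was 1.59-fold in the knockout and 3.18-fold in wild type. Adam15 had 9.91, 11.2, 8.69, 9.36 and 8.63 TPM in heated knockout testes, against 13.9, 17.4, 13.7 and 16.5 TPM in heated wild-type testes, and 9.64 to 14.4 TPM in the knockout (median 11) and 9.16 to 17.3 TPM in wild type (median 13.1) without heat. Its heated and unheated values overlapped in both genotypes, with -0.23 ± 0.14 (adjusted p = 0.127) in the knockout and 0.22 ± 0.14 (adjusted p = 0.157) in wild type. With median-of-ratios scaling Adam15 was called lower with heat in the knockout by limma, at -0.30 (adjusted p = 0.0385). After heat it was lower in the knockout than in wild type, -0.63 ± 0.15 (adjusted p = 0.000647), and its call in the difference of the heat effects, -0.45 ± 0.20 (adjusted p = 0.0464), was lost with median-of-ratios scaling (adjusted p = 0.158), quantile normalization, library weights, the replicate block, no filter on low values and without several single libraries. Of its annotated exon bases, 20.6% overlap an antisense gene.

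The other sheddases were low, and their means follow in the order heated knockout, heated wild-type, unheated knockout and unheated wild-type testes. Adam8, a leukocyte ADAM, had 5.18 ± 1.28, 6.55 ± 0.592, 3.85 ± 0.594 and 3.26 ± 0.758 TPM. Adam12, found in muscle and connective tissue, had 0.842 ± 0.104, 1.31 ± 0.085, 0.482 ± 0.098 and 0.36 ± 0.039 TPM. Both were called higher with heat in both genotypes, but the call of Adam8 in the knockout, 0.33 ± 0.14 (adjusted p = 0.0318), was lost in several settings, with adjusted p up to 0.101 without heated knockout replicate 4. For Adam8 the difference of the heat effects, -0.51 ± 0.20 (adjusted p = 0.0257), was not called with median-of-ratios scaling (adjusted p = 0.076), library weights (0.0899) or the replicate block (0.0538), or without replicate 1 of the heated knockout (0.0541) or of the heated wild type (0.054). Adam12 averaged under 0.5 TPM in both unheated groups and passed the threshold through the heated groups, so its rise is in part set by the choice of genes. Adam19, which can shed neuregulin, had 0.86 ± 0.117, 1.22 ± 0.137, 0.82 ± 0.049 and 0.66 ± 0.072 TPM and was called higher with heat in wild type and not in the knockout, with a difference of the heat effects of -0.39 ± 0.08 (adjusted p = 0.000289). Adam33 had 1.03 ± 0.283, 1.16 ± 0.189, 0.595 ± 0.35 and 0.545 ± 0.163 TPM and rose in both, and its difference of the heat effects was -0.12 ± 0.18 (adjusted p = 0.528). Antisense genes overlap 10.1% of the exon bases of Adam19.

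**Figure D5:**
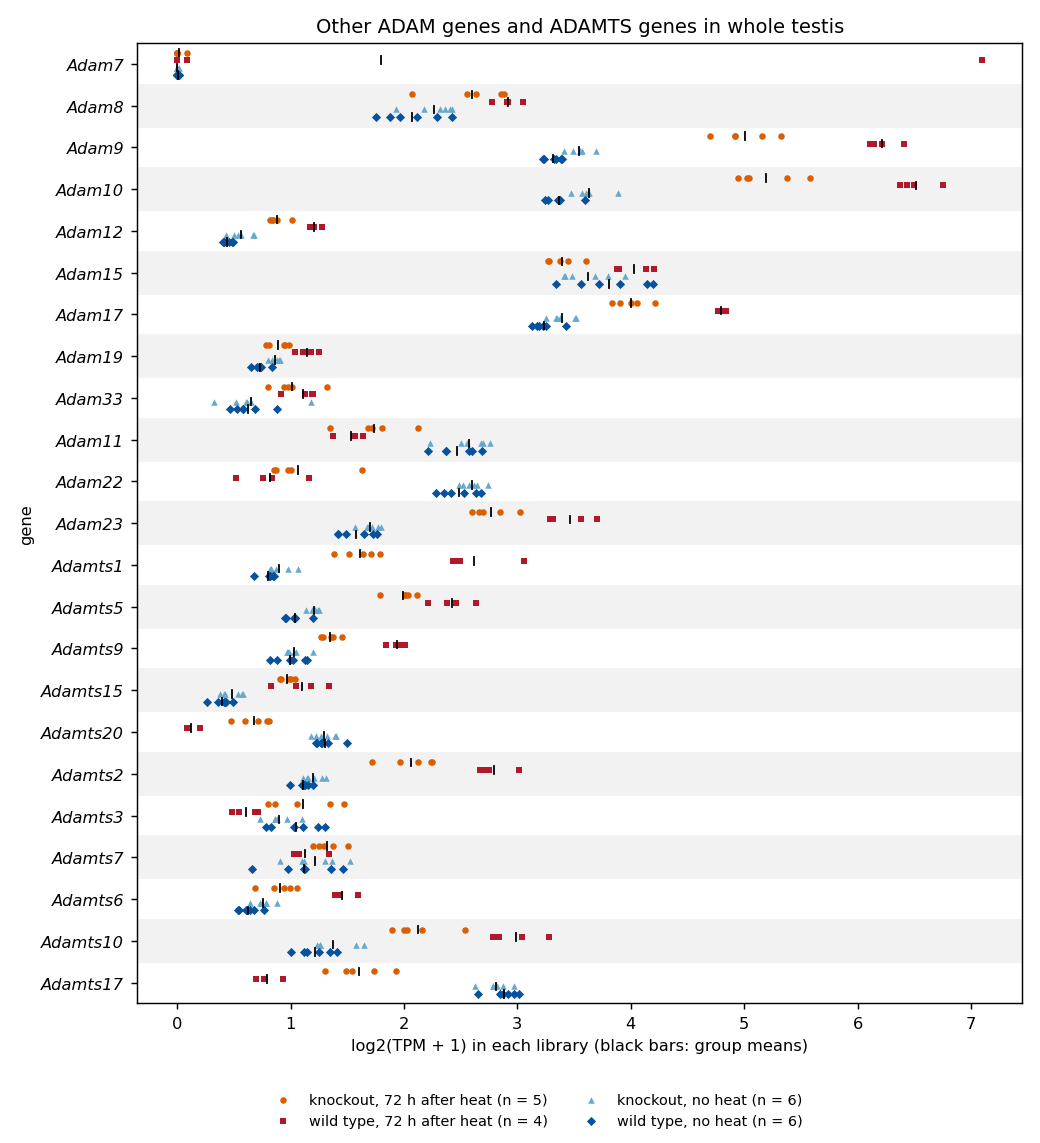
Level of the other 12 ADAM and 11 ADAMTS genes (y axis) as log2(TPM + 1) in each library (x axis). Within a gene, from top to bottom, points are heated knockout (circles), heated wild type (squares), unheated knockout (triangles) and unheated wild type (diamonds), and black bars are group means. Adam9 and Adam10 lie furthest right after heat in wild type, and 1 heated wild-type library with 136 TPM sets the Adam7 mean apart.

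Most tested partners and inhibitors of the sheddases also rose with heat. Of 12 tested partners of ADAM17 and ADAM10, heat raised 9 and lowered 1 in wild type and raised 9 and lowered 2 in the knockout, and the difference was called lower for 9 and higher for 1. Their median log2 change was 0.71 in the knockout and 1.496 in wild type. For these partners and the inhibitors below, the shares over all rows were 46.4% raised and 44.0% lowered in wild type. In the knockout they were 40.3% and 40.2%, and the difference was lower for 45.4% and higher for 31.6%. Tspan17, a tetraspanin that carries ADAM10, averaged 70.4 ± 9.01 TPM in heated knockout, 101 ± 7.47 TPM in heated wild-type, 19.7 ± 2.03 TPM in unheated knockout and 14.8 ± 0.592 TPM in unheated wild-type testes. It was also the one gene of the 6 lists described here that was called between genotypes without heat. Tspan14, another such carrier, averaged 12.8 ± 1.19 TPM in heated knockout, 21.9 ± 1.48 TPM in heated wild-type, 5.45 ± 0.645 TPM in unheated knockout and 4.42 ± 0.298 TPM in unheated wild-type testes. Tspan5, a further one, changed with heat by 0.46 ± 0.08 (adjusted p = 1.18e-05) in the knockout and 1.61 ± 0.08 (adjusted p = 4.45e-14) in wild type. Furin, the convertase that matures ADAM10 and ADAM17, changed with heat by 1.43 ± 0.12 (adjusted p = 8.67e-10) in the knockout and 2.32 ± 0.13 (adjusted p = 2.5e-13) in wild type. Rhbdf2, the iRhom that brings ADAM17 to the surface, averaged 7.54 ± 2.71 TPM in heated knockout, 17.3 ± 2.91 TPM in heated wild-type, 2.34 ± 0.432 TPM in unheated knockout and 1.94 ± 0.197 TPM in unheated wild-type testes. Of 6 inhibitors, 4 rose and 2 fell with heat in wild type, and 4 rose and 1 fell in the knockout, with a median log2 change of 0.98 in the knockout and 1.89 in wild type. Timp1 averaged 30.3 ± 15.4 TPM in heated knockout, 144 ± 43.7 TPM in heated wild-type, 2.095 ± 0.477 TPM in unheated knockout and 1.41 ± 0.224 TPM in unheated wild-type testes, and the other risers were Timp2, Timp3 and Reck. Timp3, which can block ADAM17 and several ADAMTS enzymes, changed by 1.28 ± 0.08 (adjusted p = 4.06e-12) in the knockout and 2.26 ± 0.08 (adjusted p = 3.05e-16) in wild type, and Timp2 by 1.48 ± 0.09 (adjusted p = 4.54e-12) in the knockout and 2.87 ± 0.10 (adjusted p = 1.08e-16) in wild type. The 2 that fell in wild type were A2m and Timp4, named after their values were seen.

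Of 11 tested substrates shed by ADAM10 and ADAM17, heat raised 8 and lowered 3 in wild type, and raised 9 and lowered 2 in the knockout, with a median log2 change of 0.81 in the knockout and 1.83 in wild type. All rows together had 46.4% raised and 44.0% lowered in wild type, and 40.3% and 40.2% in the knockout. App, the amyloid precursor, averaged 139.9 ± 14.1 TPM in heated knockout, 216 ± 19.1 TPM in heated wild-type, 70.1 ± 5.16 TPM in unheated knockout and 59.7 ± 2.93 TPM in unheated wild-type testes. Tnfrsf1a, a TNF receptor, averaged 53.7 ± 11.2 TPM in heated knockout, 103 ± 9.94 TPM in heated wild-type, 17.6 ± 2.29 TPM in unheated knockout and 14.1 ± 0.967 TPM in unheated wild-type testes. Both were called lower in heated knockout than in heated wild-type testes. Jag1, a Notch ligand, went the other way, with 21.03 ± 1.32 TPM in heated knockout, 10.2 ± 0.826 TPM in heated wild-type, 14.5 ± 0.963 TPM in unheated knockout and 14.2 ± 0.841 TPM in unheated wild-type testes, and a difference of the heat effects of 0.95 ± 0.09 (adjusted p = 1.15e-08). For Notch2 the difference of the heat effects was -1.03 ± 0.13 (adjusted p = 5.3e-07).

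The 3 ADAMs that lack the active site and act as receptors in the brain split. Adam23 had 5.34, 5.47, 6.19, 7.11 and 5.08 TPM in heated knockout testes, against 10.8, 11.99, 8.95 and 8.76 TPM in heated wild-type testes, and 1.97 to 2.48 TPM in the knockout (median 2.25) and 1.67 to 2.39 TPM in wild type (median 1.97) without heat. It rose in both genotypes with no overlap between groups after heat, 2.59-fold in the knockout and 5.07-fold in wild type. Adam22 averaged 1.14 ± 0.542 TPM in heated knockout, 0.787 ± 0.338 TPM in heated wild-type, 5.06 ± 0.395 TPM in unheated knockout and 4.62 ± 0.618 TPM in unheated wild-type testes. Adam11 averaged 2.38 ± 0.655 TPM in heated knockout, 1.91 ± 0.2196 TPM in heated wild-type, 4.98 ± 0.747 TPM in unheated knockout and 4.57 ± 0.688 TPM in unheated wild-type testes. Both fell in both genotypes, and their heat effects were not called different: 0.14 ± 0.18 (adjusted p = 0.506) for Adam22 and 0.10 ± 0.17 (adjusted p = 0.611) for Adam11.

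Among the 11 ADAMTS genes, heat in wild type raised 7 and lowered 3, and heat in the knockout raised 6 and lowered 2. The raised counts include Adamts15, which passed the threshold through the heated groups. The lowered counts include Adamts20, whose heated wild-type mean was under the threshold. The difference of the heat effects was called lower for 6 and higher for 3. These counts stand against 46.4% of all rows raised and 44.0% lowered in wild type, and 40.3% and 40.2% in the knockout. The difference was called lower for 45.4% of all rows and higher for 31.6%. Adamts1, which cuts the proteoglycan versican, had 2.11, 2.28, 1.61, 2.46 and 1.86 TPM in heated knockout testes, against 4.56, 7.35, 4.4 and 4.64 TPM in heated wild-type testes. Unheated levels were 0.76 to 1.09 TPM in the knockout (median 0.8) and 0.6 to 0.81 TPM in wild type (median 0.76). The groups did not overlap after heat, and the rise was 2.39-fold in the knockout and 7.01-fold in wild type, with a difference of the heat effects of -1.10 ± 0.14 (adjusted p = 8.04e-07). Adamts5, a further proteoglycan-cutting enzyme, had 3.33, 3.03, 2.46, 3.11 and 3.02 TPM in heated knockout testes, against 4.49, 5.21, 3.64 and 4.2 TPM in heated wild-type testes. Unheated levels of Adamts5 were 1.2 to 1.38 TPM in the knockout (median 1.32) and 0.93 to 1.29 TPM in wild type (median 1.04). Its heated groups were apart from each other and from unheated testes, at 2.28-fold higher in the knockout and 4.16-fold in wild type. Adamts2, which trims procollagen, had 3.36, 3.74, 2.9, 3.71 and 2.3 TPM in heated knockout testes, against 5.62, 7.09, 5.36 and 5.74 TPM in heated wild-type testes, and 1.16 to 1.49 TPM in the knockout (median 1.26) and 0.99 to 1.3 TPM in wild type (median 1.18) without heat. It followed the same order, 2.46-fold higher with heat in the knockout and 5.102-fold in wild type.

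The other ADAMTS genes had low levels, given as means in heated knockout, heated wild-type, unheated knockout and unheated wild-type testes, in that order. Adamts10, linked to fibrillin microfibrils, had 3.41 ± 0.823, 6.98 ± 1.27, 1.61 ± 0.351 and 1.33 ± 0.246 TPM. Adamts6, its close relative, had 0.882 ± 0.181, 1.75 ± 0.186, 0.697 ± 0.092 and 0.548 ± 0.094 TPM. Adamts9, a proteoglycan-cutting enzyme, had 1.55 ± 0.132, 2.84 ± 0.1902, 1.05 ± 0.124 and 1.002 ± 0.179 TPM. These 3 were called higher with heat in wild type and, except Adamts6, in the knockout. Adamts15, of the same kind, had 0.962 ± 0.075, 1.16 ± 0.316, 0.402 ± 0.088 and 0.318 ± 0.071 TPM and was called higher with heat in both, and its difference of the heat effects was -0.22 ± 0.11 (adjusted p = 0.0821), or -0.37 (adjusted p = 0.00609) under quantile normalization and -0.30 (adjusted p = 0.00915) without heated wild-type replicate 4. Like Adam12, Adamts15 passed the threshold through the heated groups, since both unheated means were under 0.5 TPM. Adamts14, left out by the threshold, averaged 0.564 ± 0.075 TPM in heated knockout, 1.01 ± 0.1299 TPM in heated wild-type, 0.22 ± 0.067 TPM in unheated knockout and 0.215 ± 0.053 TPM in unheated wild-type testes. Of the exon bases of Adamts9, 12.0% overlap other genes. Adamts7, which cuts the cartilage protein COMP, had 1.51 ± 0.216, 1.19 ± 0.2301, 1.35 ± 0.3596 and 1.21 ± 0.4198 TPM and was called in no comparison.

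Adamts17, Adamts20 and Adamts3 were the 3 ADAMTS genes called lower with heat in wild type. Adamts17 averaged 2.07 ± 0.522 TPM in heated knockout, 0.733 ± 0.124 TPM in heated wild-type, 6.03 ± 0.544 TPM in unheated knockout and 6.38 ± 0.626 TPM in unheated wild-type testes, 2.92-fold lower with heat in the knockout and 8.703-fold in wild type. Adamts20, known for its role in melanoblast survival in the mouse, averaged 0.604 ± 0.153 TPM in heated knockout, 0.087 ± 0.042 TPM in heated wild-type, 1.46 ± 0.155 TPM in unheated knockout and 1.48 ± 0.185 TPM in unheated wild-type testes, 2.42-fold lower with heat in the knockout and 16.9-fold in wild type. The latter ratio rests on heated wild-type values of 0.06 to 0.15 TPM. On the log2(TPM + 1) scale the changes of Adamts20 were -0.62 ± 0.07 in the knockout and -1.18 ± 0.08 in wild type. Its heated wild-type mean was under the 0.5 TPM threshold, so its fall may in part be set by the choice of genes. Adamts3, a procollagen enzyme like Adamts2, averaged 1.19 ± 0.452 TPM in heated knockout, 0.527 ± 0.116 TPM in heated wild-type, 0.873 ± 0.162 TPM in unheated knockout and 1.09 ± 0.306 TPM in unheated wild-type testes. It was lower with heat in wild type (-0.44 ± 0.13, adjusted p = 0.00266) and not called in the knockout (0.21 ± 0.12, adjusted p = 0.114), and the wild-type call was lost under quantile normalization (adjusted p = 0.273). Adamts17, Adamts20 and Adamts3 were called higher in the knockout than in wild type after heat, and for Adamts3 that call, 0.50 ± 0.13 (adjusted p = 0.00162), was also lost under quantile normalization, at 0.20 (adjusted p = 0.165).

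Of 9 tested ADAMTS substrates, heat raised 7 and lowered 2 in each genotype, with a median log2 change of 0.75 in the knockout and 0.96 in wild type. Dcn, the proteoglycan decorin, averaged 157 ± 29.5 TPM in heated knockout, 345 ± 61.1 TPM in heated wild-type, 45.4 ± 4.47 TPM in unheated knockout and 36.8 ± 4.56 TPM in unheated wild-type testes. Bgn, biglycan, averaged 79.6 ± 9.54 TPM in heated knockout, 138 ± 18.97 TPM in heated wild-type, 26.4 ± 3.45 TPM in unheated knockout and 21.9 ± 2.25 TPM in unheated wild-type testes. Ncan and Comp were lowered, with -1.36 ± 0.08 (adjusted p = 2.42e-13) for Ncan and -1.26 ± 0.08 (adjusted p = 1.47e-12) for Comp in wild type. Of 8 tested ADAMTS-like and accessory genes, heat raised 4 and lowered 3 in wild type and raised 3 and lowered 3 in the knockout, with a median of 0.11 in the knockout and 0.10 in wild type. Counts of substrates and accessory genes stand beside 46.4% of all rows raised and 44.0% lowered in wild type. In the knockout 40.3% were raised and 40.2% lowered, so the accessory counts were close to those shares. Fbln1, a cofactor of ADAMTS1, averaged 16.5 ± 5.15 TPM in heated knockout, 37.6 ± 4.12 TPM in heated wild-type, 5.58 ± 0.71 TPM in unheated knockout and 5.07 ± 0.422 TPM in unheated wild-type testes. Papln was among those lowered, with -0.55 ± 0.10 (adjusted p = 1.65e-05) in wild type.

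Somatic cell markers moved beside these genes. The summed level of 8 Sertoli cell markers was 4113 to 5978 TPM in heated knockout, 9079 to 11354 TPM in heated wild-type, 1415 to 1912 TPM in unheated knockout and 1126 to 1286 TPM in unheated wild-type testes. That of 6 fibroblast and matrix markers was 1039 to 1596 TPM in heated knockout, 2569 to 3111 TPM in heated wild-type, 346 to 434 TPM in unheated knockout and 289.7 to 330.2 TPM in unheated wild-type testes. All 8 Sertoli and all 6 matrix markers rose with heat in both genotypes, and macrophage markers did so too, at 97.2 to 129 TPM in heated knockout, 185 to 269 TPM in heated wild-type, 41.4 to 53.9 TPM in unheated knockout and 32.8 to 39.9 TPM in unheated wild-type testes. The summed level of 8 Leydig cell markers overlapped between the heated genotypes, at 4344 to 5581 TPM in heated knockout, 5089 to 7053 TPM in heated wild-type, 1456 to 2129 TPM in unheated knockout and 1117 to 1623 TPM in unheated wild-type testes. All 8 rose with heat in both genotypes, and after heat 4 were called lower in the knockout and 4 were not called. Among them Cyp17a1 averaged 747 ± 54.6 TPM in heated knockout, 646 ± 123 TPM in heated wild-type, 270.4 ± 52.8 TPM in unheated knockout and 199 ± 53.02 TPM in unheated wild-type testes. Beside these marker counts, 46.4% of all rows were raised with heat in wild type and 40.3% in the knockout. After heat 47.2% of all rows were lower in the knockout. The part of all these somatic markers in the rise of the sheddases and ADAMTS genes was not tested.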

How the data were processed

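Whole-testis RNA was extracted with Trizol, made into stranded TruSeq mRNA libraries and sequenced on an Illumina HiSeq instrument, per the labels' protocols. STAR and mm10 are named in the submitters' processing notes; the sources used here give no STAR version, annotation or abundance tool. The authors deposited TPM values, 1 column per library, which are scaled to the library total and to transcript length, so counts and depth are unknown and precision comes from the number of libraries (5 heated knockout, 4 heated wild-type, 6 unheated knockout, 6 unheated wild-type). Groups were taken from the sample labels.

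Rows averaging 0.5 TPM or more (21450 of 55573) were tested as log2(TPM + 1) with limma 3.58.1 in R 4.3.3, using a mean-variance trend, all 4 groups in 1 model, 5 comparisons and Benjamini-Hochberg adjustment over all rows. A call is an adjusted p under 0.05. Fold changes on the log2(TPM + 1) scale understate the change of low genes, and folds without a log are ratios of mean TPM. The steps were tested on simulated data. Gene models were those of GENCODE M21, and start windows and their sequences those of RefSeq on GRCm38.p6.

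Members and gene lists were chosen with earlier results of these data known. Every member is named with its group levels. Values per library are given for Adam1a, Adam1b, Adam2, Adam3, Adam5, Adam7, Adam9, Adam10, Adam15, Adam17, Adamts1, Adamts2, Adamts5, Adamts13, and the 3 largest called rises and falls of each comparison, and Mageb4 is given as a range. Pathway genes named come from the 4 called genes of each list with the largest moderated statistic for heat in wild type and the 4 with the largest for the difference of the heat effects, and not all of these are named; A2m and Timp4 fall outside this rule. Alternatives were other pseudocounts (0.1 and 0.5), filters (1 TPM, or 1 library above 0), median-of-ratios scaling, quantile normalization, no trend, library weights, the compared groups alone, a replicate block and leaving out each library.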

Additional observations from a re-analysis of the deposited data

Results flagged for a closer look

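A library far from the rest of its group, by Dixon's gap over range at the 95% level, was found in 24 of the 172 groups of values examined, where chance alone gives about 1 in 20. In unheated wild-type replicate 4, 7 genes stood high: Adam2 at 263 TPM (236 to 241 in the others), Adam5 at 814 TPM (667 to 716 in the others), Adam18 at 93.1 TPM (79.03 to 84.1 in the others), Adam30 at 84.2 TPM (72.1 to 75.9 in the others), Adam32 at 488 TPM (421 to 445 in the others), Adam10 at 11.1 TPM (8.46 to 9.38 in the others) and Adamts5 at 1.29 TPM (0.93 to 1.06 in the others). There Adamts1 stood low, with 0.6 TPM (0.75 to 0.81 in the others). In heated wild-type replicate 1, 5 genes stood high: Adam6a at 13.1 TPM (3.65 to 4.92 in the others), Adam6b at 10.2 TPM (2.72 to 3.5 in the others), Adam20 at 3.71 TPM (1.65 to 1.84 in the others), Adamts20 at 0.15 TPM (0.06 to 0.07 in the others) and Adamts7 at 1.53 TPM (1.04 to 1.11 in the others). In heated knockout replicate 5, 3 genes stood high: Adam26a at 9.18 TPM (2.87 to 3.98 in the others), Adam26b at 3.6 TPM (1.58 to 1.97 in the others) and Adam22 at 2.1 TPM (0.81 to 1 in the others). In heated wild-type replicate 2, Adam21 stood low, at 11.99 TPM (15.4 to 15.7 in the others). In heated knockout replicate 1, Adam7 stood high, at 0.06 TPM (0 in the others). In heated wild-type replicate 3, Adam7 stood high, at 136 TPM (0 to 0.06 in the others). In unheated knockout replicate 5, Adam7 stood high, at 0.01 TPM (0 in the others). In unheated knockout replicate 6, Adam10 stood high, at 13.8 TPM (10.1 to 11.4 in the others). In unheated knockout replicate 3, Adam33 stood high, at 1.27 TPM (0.25 to 0.57 in the others). In heated wild-type replicate 2, Adamts1 stood high, at 7.35 TPM (4.4 to 4.64 in the others). In unheated knockout replicate 1, Adamts9 stood high, at 1.29 TPM (0.96 to 1.07 in the others).

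The heat effect differed between knockout and wild type, by limma's interaction term, for 37 of the 43 genes. By the same term 31.6% of all rows were called higher and 45.4% lower. The values are differences of log2(TPM + 1) changes, knockout minus wild type. Less lowered or higher in the knockout were Adam6b (3.24), Adam6a (3.20), Adam32 (3.08), Adam4 (2.79), Adam24 (2.63) and Adam5 (2.43). Next came Adam29 (2.37), Adam18 (2.29), Adam34 (1.95), Adam30 (1.91), Adam2 (1.88) and Adam20 (1.87). Next came Adam3 (1.86), Adam25 (1.83), Adam1b (1.40), Adam39 (1.37), Adam26a (1.29) and Adam1a (1.26). Next came Adam26b (0.88), Adamts17 (0.88), Adamts3 (0.65), Adamts20 (0.56) and Adam21 (0.41). Less raised or lower in the knockout were Adam10 (-1.58), Adam9 (-1.44), Adamts1 (-1.10), Adamts10 (-1.02), Adam17 (-0.95) and Adam23 (-0.83). Next came Adamts2 (-0.82), Adamts6 (-0.68), Adamts9 (-0.63), Adamts5 (-0.60), Adam8 (-0.51) and Adam12 (-0.45). Next came Adam15 (-0.45) and Adam19 (-0.39).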

How the results depend on the processing

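No called change among the 43 genes turned its direction under any alternative tried. Without heat, knockout against wild type gave 0 calls by limma in either direction (6 genes at an unadjusted p under 0.05). It gave 5 genes higher with library weights and 1 with only those groups in the fit. The shares of all rows at that p and in those fits were not counted, and the cause was not tested. No other count moved by over 1.5 times. Leaving out each library gave 15 to 16 genes higher and 25 lower with heat in wild type, 12 to 14 higher and 21 to 24 lower with heat in the knockout, 0 without heat, 23 to 24 higher and 13 to 15 lower in the knockout after heat, and 23 higher and 12 to 14 lower for the difference of the heat effects. Of 3087 values without 1 library, 3068 kept their call and 19 lost it, all in Adam8 or Adam15. A filter of 1 TPM left 37 of the genes in the test. Adam8, Adam15, Adamts3 and Adam1a lost calls in other settings, as given beside each gene. In at least 1 setting a call for heat in the knockout was gained by Adam4, Adam6a, Adam6b and Adam15 (lower) and by Adamts3 and Adamts6 (higher). Likewise, Adam7 gained a call for heat in wild type. Adam7, Adam8, Adam11, Adam22, Adam33 and Adamts15 gained one after heat, and Adamts15 for the difference.

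Replicate numbers are shared between groups, and no pairing of the libraries by number was seen. Deviations of libraries with the same number correlated at -0.20 to 0.28 (median 0.005) and with other numbers at -0.32 to 0.36. Such correlations cannot exclude a pairing, and the sample names give only the numbers. A replicate block gave 22 genes lower with heat in the knockout, against 21, and 12 lower for the difference, against 14. TPM values hold no depth, so whether low genes such as Adamts20 rest on few reads is unknown. Changes in cell makeup and in RNA per cell cannot be told apart in whole testis. Copies with similar sequence and overlapping exons limit Adam6a, Adam6b, Adam25, Adam39, Adam26a, Adam26b and Adam1a.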
